A study of Mus musculus with 8 samples.

Results

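Fibroblast growth factors (FGFs) are secreted proteins that bind receptor tyrosine kinases at the cell surface together with heparan sulphate, and the activated receptors signal through the adaptor FRS2 to the RAS and MAP kinase cascade. In the brain they pattern the embryo, and in the adult they act on neurons, astrocytes and oligodendrocytes. The 9 genes described here were picked by name, 6 ligands (Fgf1, Fgf2, Fgf3, Fgf9, Fgf10 and Fgf18) and 3 receptors (Fgfr1, Fgfr2 and Fgfr3), of 17613 genes in the deposited table. All 9 were found and all 9 passed the filter on low counts, among 15902 genes tested.

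The libraries are polyadenylated RNA from brain of C57BL/6 mice, 4 labelled Uhrf2 knockout (KO) and 4 labelled wild type (WT). The series asks what loss of UHRF2, a chromatin protein that recognises modified cytosine, does to expression in a strain whose title links it to seizures. Age, sex, the deleted part of Uhrf2 and whether each library is a separate animal are not stated in the labels, so p-values measure the spread between these libraries, which may be technical. Library totals were 13550420 to 19065173 counts in the libraries labelled KO and 11891350 to 19773921 in those labelled WT, and 3 counts correspond to between 0.150 and 0.252 CPM, the level used throughout, which scales counts to a common library size. Uhrf2 itself read 86.4, 88.6, 88.4 and 91.8 CPM in replicates 1 to 4 labelled KO, against 58.0, 47.7, 57.2 and 58.9 CPM in those labelled WT. Every library labelled KO lay above every library labelled WT (exact two-sided permutation p = 0.0286, the smallest that 70 arrangements allow), which goes against the label of a knockout, so every direction below rests on the labels. Counts per gene do not separate a deleted part from the rest of Uhrf2. The tissue label was checked against markers, and neuron markers summed to between 8891 and 9538 CPM in the libraries labelled KO and between 8586 and 9080 CPM in those labelled WT.

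Fgf3 and Fgf10 were singled out because they had passed the threshold of an adjusted p of 0.05 in the comparison of the libraries labelled KO with those labelled WT. Their differences are therefore given as a description, with no test. Just inside that threshold lay Fgf10, at an adjusted p of 0.0131 (quasi-likelihood test of edgeR, Benjamini-Hochberg over all tested genes), and the nearest of the 9 outside it was Fgf9, at 0.284. Without WT replicate 3 the value for Fgf10 was 0.070, outside the threshold. Both values for Fgf10 only show how near the threshold that choice lay, and are no support for a difference. The threshold was passed by 1.43% of all tested genes, by 1.14% with the libraries labelled KO higher and by 0.289% with them lower. The last share stands for 46 genes, a count that fell to 14 when WT replicate 3 was left out and to 15 when KO replicate 3 was, and that reached 77 in the fit lacking KO replicate 2.

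Fgf3 lies on chromosome 7 from 144838083 to 144844436 and Fgf10 on chromosome 13 from 118669791 to 118792115, both on the plus strand (GRCm38, GENCODE M21). Sequences from the 250 bases before their RefSeq start sites, which lie inside these gene spans, are shown because these are the ligands whose levels stood apart and because UHRF2 binds modified cytosine, which in mammals is found mainly at CpG. CpG dinucleotides are in capitals, and the runs, from RefSeq on GRCm38.p6, read 5′ to 3′ on the plus strand. The Fgf10 window is whole, and of the Fgf3 window the first 233 bases are printed, so that run stops short of the start site, before the next exon in GENCODE M21.
Fgf3, chr7:144838362-144838594: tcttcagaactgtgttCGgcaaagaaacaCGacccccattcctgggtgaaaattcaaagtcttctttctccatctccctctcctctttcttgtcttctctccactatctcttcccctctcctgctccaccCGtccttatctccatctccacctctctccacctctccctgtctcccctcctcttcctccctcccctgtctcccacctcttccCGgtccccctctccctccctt
Fgf10, chr13:118714449-118714698: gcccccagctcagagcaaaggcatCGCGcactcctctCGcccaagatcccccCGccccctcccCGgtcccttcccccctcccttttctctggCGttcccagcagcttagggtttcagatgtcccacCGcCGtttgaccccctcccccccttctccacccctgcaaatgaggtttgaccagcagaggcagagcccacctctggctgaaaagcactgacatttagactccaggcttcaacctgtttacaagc

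In the 250 bases before the start site, Fgf3 had 4 CpG and Fgf10 had 8. Of 32851 such mouse windows, 62.2% had at least as many CpG as Fgf3 and 43.0% at least as many as Fgf10. Fgf18 had 37, a number that 2.2% of windows reached. Neither the Fgf3 nor the Fgf10 window held the EGR motif GCGGGGGCG or GCGTGGGCG, the AP-1 motif TGACTCA or the CRE motif TGACGTCA on either strand, which 3.06%, 4.46% and 1.55% of all windows held. Methylation was not measured in these libraries, and a missing match says only that these letters are not in these windows.

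Fgf3 encodes a ligand that acts in development of the inner ear and hindbrain. It read 2.61, 3.25, 2.43 and 2.74 CPM in replicates 1 to 4 labelled KO, against 0.841, 0.919, 1.35 and 0.907 CPM in those labelled WT. Every library labelled KO lay above every library labelled WT, and WT replicate 3 was the highest of its group. The counts behind these values were small, 35 to 51 per library labelled KO and 10 to 27 per library labelled WT. The level was 2.66-fold higher in the libraries labelled KO, a fitted log2 fold change of 1.41 (SE 0.20), at rank 8 from the highest of the 15902 tested genes. Without WT replicate 3 it was 1.62.

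Fgf10, a ligand that signals mainly through the IIIb form of FGFR2 and is made by tanycytes of the adult hypothalamus, differed the other way. It read 5.52, 6.31, 6.18 and 6.41 CPM in replicates 1 to 4 labelled KO, against 8.24, 8.88, 8.84 and 8.42 CPM in those labelled WT. All 4 libraries labelled KO lay below all 4 labelled WT, in the contrast by which Fgf10 was picked. The spread inside each group was below what counting alone gives, so the gap cannot be judged by it. The log2 fold change was -0.49 (SE 0.10), so the level was 1.41-fold higher in the libraries labelled WT. It was at rank 114 from the lowest of all tested genes. Fgf10 shares 123 exonic bases with the antisense gene Gm16263, which was not analysed here. Whether fewer cells made Fgf10 or each cell held less of its RNA cannot be told apart in bulk tissue, and the same holds for the other genes.

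**Figure D1:**
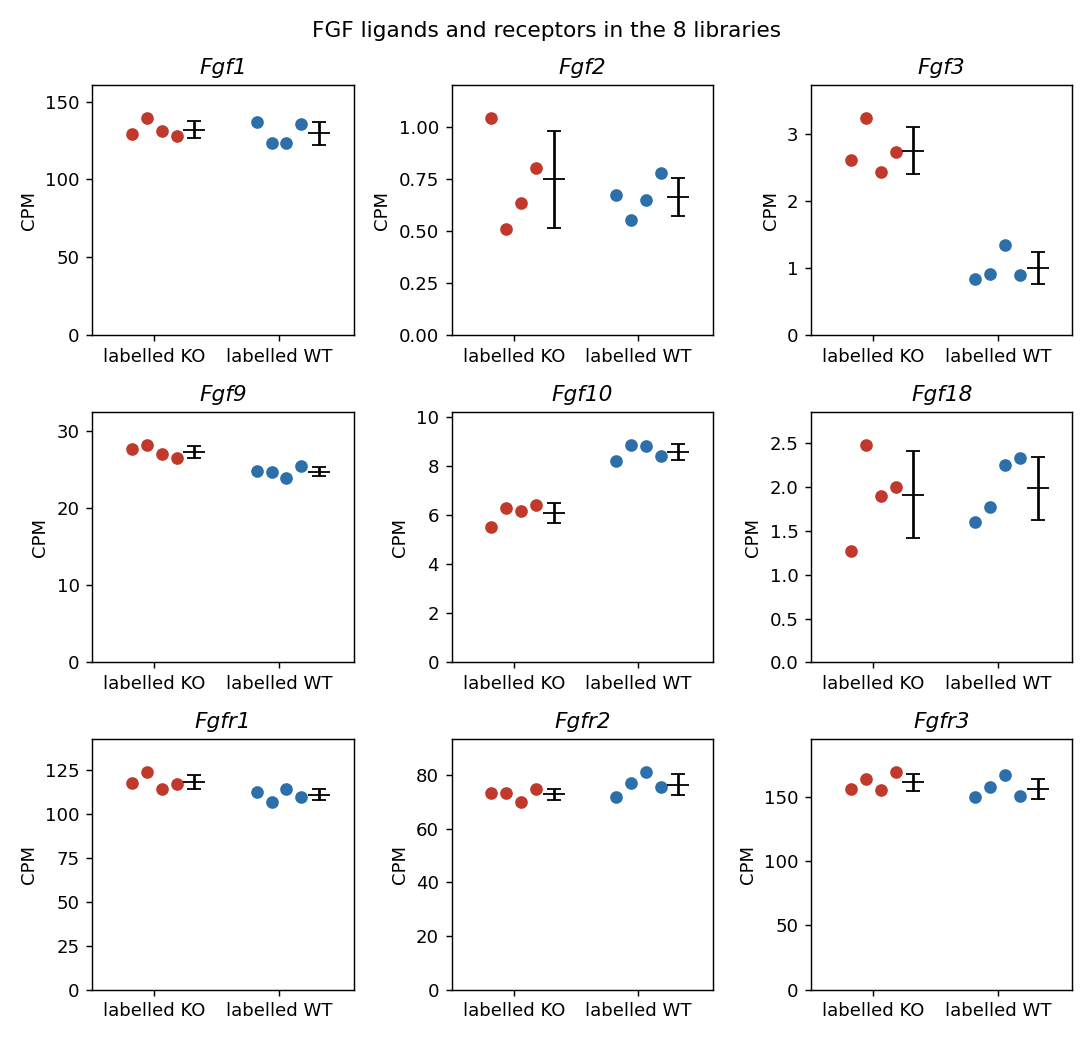
Level of each of the 9 genes in CPM (y axes, from 0) in the 4 libraries labelled KO (red) and the 4 labelled WT (blue), with the mean and SD beside the points. Fgf3 lies between 2.43 and 3.25 CPM in libraries labelled KO and between 0.841 and 1.35 CPM in those labelled WT, while Fgf10 lies lower in libraries labelled KO; the receptors overlap between the groups.

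Marker genes were read beside the Fgf10 values. The tanycyte and ependymal markers, of which 9 of 10 were analysed, summed to 82.0 to 93.6 CPM in the libraries labelled KO and 86.3 to 92.4 CPM in those labelled WT, and 0 of 9 passed the threshold by edgeR (1 unadjusted under 0.05, 0 with limma-voom, 1 with DESeq2, which gave 3 of the 9 no adjusted p). Of the 9, 5 had a log2 fold change above 0, and the median was 0.085. Over all tested genes 48.0% were above 0 and the median was -0.005. The marker of lowest p, Col23a1, a transmembrane collagen, read 16.4 ± 1.41 CPM in the libraries labelled KO and 20.3 ± 1.53 CPM in those labelled WT (SD, n = 4 each), with no overlap and an adjusted p of 0.0529 by edgeR. Meningeal fibroblast markers summed to 163 to 243 CPM in the libraries labelled KO and 205 to 221 CPM in those labelled WT, and 0 of 10 passed by edgeR (1 unadjusted under 0.05, 0 with DESeq2 or limma-voom). Of these 10, 3 had a log2 fold change above 0, and the median was -0.158. Endothelial and mural markers summed to 316 to 333 CPM in the libraries labelled KO and 343 to 366 CPM in those labelled WT. These sums did not overlap. Of these 11, 2 had a log2 fold change above 0, and the median was -0.132. The threshold was passed by 1 of 11, the thyroid hormone transporter Slco1c1, which fell by 0.23 on the log2 scale. Over all tested genes 0.289% passed as lower. Slco1c1, Tek and Rgs5 lay lower in the libraries labelled KO without overlap, as did 3.4% of all tested genes. No marker of these 3 lists was at 0 in all libraries, Rax was not analysed here, and the part of these cells in the Fgf10 difference was not tested.

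Set beside Fgf3 and Fgf10, the other 4 ligands did not pass the threshold, and neither did the receptors. Over these 7 genes 0 passed by edgeR, 0 with limma-voom and 0 with DESeq2, which gave 2 of them no adjusted p, and 2 were under 0.05 unadjusted (Fgf9 and Fgfr1). Fgf9, a ligand made by neurons, read 27.7, 28.2, 27.0 and 26.4 CPM in replicates 1 to 4 labelled KO, against 24.8, 24.6, 24.0 and 25.4 CPM in those labelled WT. The groups did not overlap, with libraries labelled KO above those labelled WT, but the difference was small. Its log2 fold change was 0.15 (SE 0.06), with an adjusted p of 0.284 by edgeR over all tested genes. The fold changes of 12 of 12 neuron markers were above 0 (median log2 value 0.08), beside 48.0% of all tested genes (median -0.005). Of the 12, 0 passed by edgeR or limma-voom and 1 with DESeq2, beside 1.43% of all tested genes by edgeR. By edgeR 6 were under 0.05 unadjusted, a cutoff whose share over all tested genes was not counted. The part of neurons in the Fgf9 values was not tested. Groups without overlap were thus seen in 3 of the 9 genes, of which 2 had been picked for this contrast, and in 7.67% of all tested genes, with the libraries labelled KO above in 4.28% and below in 3.4%.

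Fgf1, an acidic FGF that binds all the FGF receptors, was the most abundant ligand and averaged 132.0 ± 5.38 CPM in the libraries labelled KO and 129.7 ± 7.40 CPM in those labelled WT (SD, n = 4 each). The groups overlapped, and the 95% interval of the log2 fold change ran from -0.07 to 0.13 (adjusted p = 0.877 by edgeR). Fgf18, a ligand that binds FGFR3 and acts in bone and cortex, had 17 to 39 counts per library labelled KO and 19 to 45 per library labelled WT, at means of 1.92 ± 0.50 and 1.99 ± 0.36 CPM (SD, n = 4 each). Its interval was wide, from -0.50 to 0.38 on the log2 scale (adjusted p = 0.945 by edgeR).

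Fgf2, basic FGF, was the ligand nearest the limit of the measurement, with 8 to 14 counts per library labelled KO and 8 to 13 per library labelled WT. Its log2 fold change had a 95% interval from -0.48 to 0.78, wider than that of any other member. Fgf2 shares 640 exonic bases with Nudt6 on the opposite strand. The kit was stranded, per the labels, but no source used here gives the strand setting of the counting. Whether the counts keep the reads of Fgf2 and Nudt6 apart is therefore not known. Nudt6 read 4.08 ± 0.67 CPM in the libraries labelled KO and 3.62 ± 0.44 CPM in those labelled WT (SD, n = 4 each), with overlap between the groups.

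**Figure D2:**
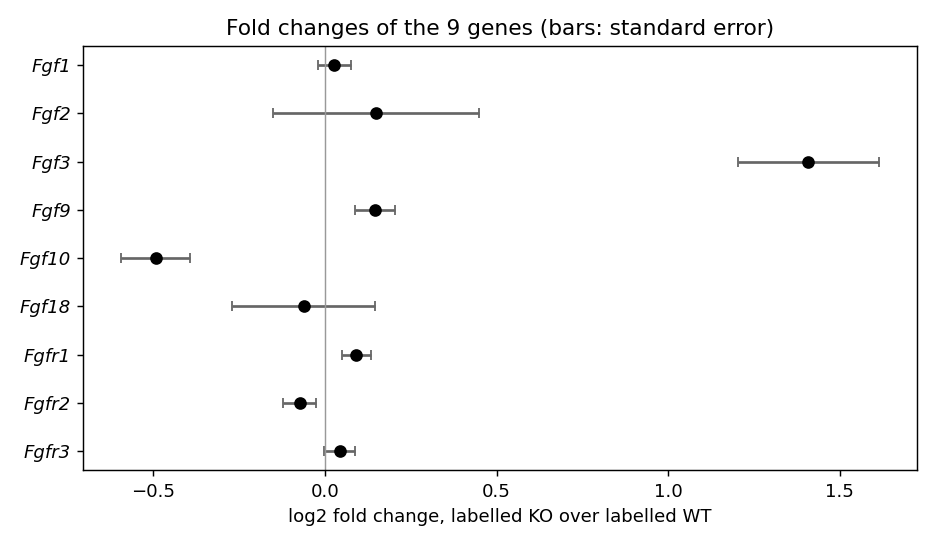
Log2 fold change of each gene, libraries labelled KO over libraries labelled WT (x axis), as points with bars for the standard error. Fgf3 stands at 1.41 and Fgf10 at -0.49, and the other 7 genes lie between -0.07 and 0.15.

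The 3 receptors differed little between the groups. Fgfr1, expressed widely by neurons, read 114 to 124 CPM in the libraries labelled KO and 107 to 114 CPM in those labelled WT, at a log2 fold change of 0.09 (SE 0.04, adjusted p = 0.384 by edgeR). The groups overlapped, with the lowest library labelled KO just under the highest labelled WT. Fgfr1 shares 164 exonic bases with the antisense gene Gm16159, which read 2.01 ± 0.22 CPM in the libraries labelled KO and 1.96 ± 0.20 CPM in those labelled WT (SD, n = 4 each). Fgfr3, a receptor of astrocytes, read 155 to 169 CPM in the libraries labelled KO and 150 to 167 CPM in those labelled WT, at 0.04 (SE 0.05, adjusted p = 0.766 by edgeR). Its 95% interval ran from -0.05 to 0.14 on the log2 scale. Astrocyte markers other than Fgfr3 summed to 5988 to 6491 CPM in the libraries labelled KO and 6362 to 6504 CPM in those labelled WT, with 0 of 11 past the threshold by edgeR (3 unadjusted under 0.05, 1 with DESeq2, 0 with limma-voom). Of these 11, 3 had a log2 fold change above 0 (median -0.038), beside 48.0% of all tested genes. The part of astrocytes in the Fgfr3 values was not tested.

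Fgfr2, found in oligodendrocytes and astrocytes and the receptor through which FGF10 acts, read 70.0 to 74.9 CPM in the libraries labelled KO and 71.8 to 81.3 CPM in those labelled WT. The groups overlapped, at a log2 fold change of -0.07 (SE 0.05, adjusted p = 0.57 by edgeR), with a 95% interval from -0.17 to 0.03. Markers of myelinating oligodendrocytes summed to 7156 to 8080 CPM in the libraries labelled KO and 7636 to 8004 CPM in those labelled WT, with 0 of 12 past the threshold by edgeR (2 unadjusted under 0.05, 0 with DESeq2 or limma-voom). Of these 12, 1 had a log2 fold change above 0 (median -0.06), beside 48.0% of all tested genes. The part of these cells in the Fgfr2 values was not tested. The IIIb and IIIc forms of Fgfr2 differ by an alternative exon and cannot be separated in counts per gene. The annotated Fgfr2 gene spans bases 130162451 to 133123350 of chromosome 7, with other genes inside it, and shares 314 exonic bases with Ctbp2, which read 35.4 ± 1.41 CPM in the libraries labelled KO and 39.4 ± 4.01 CPM in those labelled WT (SD, n = 4 each). Inside that span, with no shared exonic base, lies Chst15, a chondroitin sulphotransferase gene. It rose to 52.0 ± 3.30 CPM in the libraries labelled KO, against 41.3 ± 1.20 CPM in those labelled WT (SD, n = 4 each; adjusted p = 0.00298 by edgeR). Of all tested genes, 1.14% passed as higher. The other tested genes overlapping that span did not pass, at adjusted p-values of 0.33 to 0.99 by edgeR. The RefSeq window before the Fgfr2 start site covers bases 130266809 to 130267058, on the minus strand. On the minus strand, the part of the annotated span from this window up to base 133123350 lies before that start site. A gene in that part lies outside Fgfr2 as read from that start, so lying inside the annotated span is no link to this receptor.

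Levels were compared between genes per length, as CPM per kb of the longest coding transcript. Among ligands, Fgf1 led at 33.1 ± 1.35 CPM per kb in the libraries labelled KO and 32.6 ± 1.86 in those labelled WT, followed by Fgf9 at 7.61 ± 0.21 and 6.88 ± 0.17 CPM per kb (SD, n = 4 each). Fgf10 stood at 1.48 ± 0.098 CPM per kb in the libraries labelled KO and 2.09 ± 0.077 in those labelled WT, and Fgf18 at 1.76 ± 0.46 and 1.83 ± 0.33. These neighbours did not differ beyond their spread, and Fgf10 lay above Fgf18 in 1 of 4 libraries labelled KO and in 3 of 4 labelled WT. Fgf3 was next, at 1.20 ± 0.15 CPM per kb in the libraries labelled KO and 0.437 ± 0.10 in those labelled WT, below Fgf10 and Fgf18 in every library of either group. Fgf2 was last, at 0.125 ± 0.039 CPM per kb in the libraries labelled KO and 0.111 ± 0.016 in those labelled WT.

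Within single libraries the balance of Fgf3 and Fgf10 differed between the groups. The ratio of Fgf3 to Fgf10 per length was 0.846, 0.922, 0.704 and 0.764 in replicates 1 to 4 labelled KO, against 0.183, 0.185, 0.273 and 0.193 in those labelled WT. As a share of the summed level per length of the 6 ligands, Fgf3 made up 2.64% ± 0.24 in the libraries labelled KO and 1.0% ± 0.26 in those labelled WT, and Fgf10 3.28% ± 0.21 and 4.77% ± 0.37 (SD, n = 4 each). Fgf1 and Fgf9 together made up most of the sum in both groups, Fgf1 alone 73.1% ± 0.55 in the libraries labelled KO and 74.1% ± 1.36 in those labelled WT. Both measures come from the contrast that picked Fgf3 and Fgf10 and are a description.

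**Figure D3:**
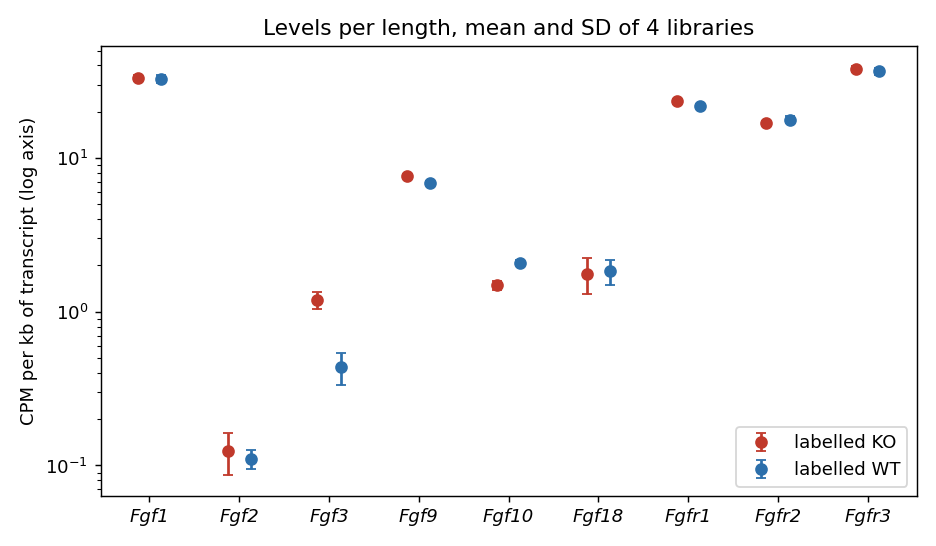
Level of each gene in CPM per kb of transcript (log axis), as the mean and SD of the 4 libraries labelled KO (red, left of each pair) and the 4 labelled WT (blue). Fgf1 and the 3 receptors lie between 16.9 and 37.9 CPM per kb, and Fgf3 lies between Fgf2 and Fgf18 in both groups.

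The receptors kept 1 order in all 8 libraries, Fgfr3 above Fgfr1 above Fgfr2. Fgfr3 stood at 37.9 ± 1.56 CPM per kb in the libraries labelled KO and 36.8 ± 1.86 in those labelled WT, Fgfr1 at 23.4 ± 0.82 and 21.9 ± 0.64, and Fgfr2 at 16.9 ± 0.48 and 17.7 ± 0.91 (SD, n = 4 each). On average, each receptor thus stood above every ligand but Fgf1 per length. The spread between libraries differed with the level. For Fgf1 the coefficient of variation in CPM was 4.07% in the libraries labelled KO and 5.70% in those labelled WT, where counting alone gives 2.21% and 2.23%. For Fgf3 it was 12.7% in the libraries labelled KO and 23.1% in those labelled WT, where counting alone gives 15.4% and 26.2%, and for Fgf10 it was 6.58% and 3.69%, where counting alone gives 10.3% and 8.72%. The spread of Fgf3 and Fgf10 inside each group was thus below what counting alone gives.

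Genes whose pattern was most like each of these ligands were sought by Pearson's r of log2 CPM over the 8 libraries, among 13471 named genes with a mean of at least 1 CPM. The nearest to Fgf3 were Fam129b (r of 0.979), the CXXC zinc finger gene Cxxc5 (0.975) and the zinc finger gene Zbtb1 (0.972). The nearest to Fgf10 were the chemokine gene Cxcl12 (0.988), the RNA helicase gene Dhx33 (0.970) and the splicing factor gene Srsf2 (0.965). These values share the split between the groups, and over the deviations from the group means r was 0.55 to 0.69 for the first 3 and 0.893, 0.885 and 0.675 for Cxcl12, Dhx33 and Srsf2. The genes were picked for the highest r, which also holds these deviations, so high values here are partly built in. The deviations of Fgf3 and Fgf10 were also below what counting alone gives. Likeness beyond the split between the groups can therefore not be read from these values. Cxcl12 read 44.6 CPM in the libraries labelled KO and 57.5 CPM in those labelled WT.

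The genes next to Fgf3 and Fgf10 on the chromosome that were analysed did not pass the threshold. Ano1, a chloride channel gene 86.1 kb from Fgf3, read 5.25 ± 0.45 CPM in the libraries labelled KO and 5.15 ± 0.35 CPM in those labelled WT, and Oraov1, 70.7 kb away on the other side, read 16.4 ± 1.53 and 17.0 ± 1.07 CPM (SD, n = 4 each). Nnt, the mitochondrial transhydrogenase gene 543.3 kb from Fgf10, read 21.1 ± 2.05 CPM in the libraries labelled KO and 21.5 ± 0.79 CPM in those labelled WT, and B430218F22Rik, 281.7 kb away, read 4.13 ± 0.56 and 3.45 ± 0.14 CPM. The groups overlapped for all 4 neighbours, at adjusted p-values of 0.47 to 0.983 by edgeR.

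Of 12 other secreted ligands, Fgf5, Fgf7, Fgf16 and Fgf22 were analysed. Their means were low, 0.926 to 3.57 CPM in the libraries labelled KO and 0.889 to 3.84 CPM in those labelled WT. Of the 4, 0 passed by edgeR, also unadjusted, or by limma-voom, while DESeq2 gave 3 of them no adjusted p. The 95% intervals of the log2 fold changes were wide. They ran from -0.41 to 0.39 for Fgf5, -0.43 to 0.23 for Fgf7, -0.24 to 0.86 for Fgf16 and -0.54 to 0.63 for Fgf22. Fgf7, the closest relative of Fgf10 and likewise a ligand of the IIIb form of FGFR2, read 3.57 ± 0.38 CPM in the libraries labelled KO and 3.84 ± 0.80 CPM in those labelled WT (SD, n = 4 each). The intracellular homologous factors Fgf11 to Fgf14 are not secreted and bind sodium channels. Of these 4, 0 passed by edgeR, also unadjusted, by DESeq2 or by limma-voom, and Fgf12 was the highest, at 166 ± 11.8 CPM in the libraries labelled KO and 159 ± 12.7 CPM in those labelled WT. Of the 10 analysed receptors and co-receptors outside the 9 genes, 0 passed by edgeR, limma-voom or DESeq2, which gave 1 of them no adjusted p (1 unadjusted under 0.05 by edgeR, Flrt1), among them Fgfrl1, a receptor without a kinase domain, at 15.7 ± 0.98 CPM in the libraries labelled KO and 16.5 ± 0.67 CPM in those labelled WT, and the co-receptor Kl, at 28.6 ± 1.98 and 32.1 ± 4.49 CPM. Choroid plexus markers, Kl included, summed to 909 to 1073 CPM in the libraries labelled KO and 919 to 1283 CPM in those labelled WT. Of these 9, 2 had a log2 fold change above 0 (median -0.075), beside 48.0% of all tested genes. Flrt1, a membrane protein that binds FGF receptors, read 29.6 ± 0.36 CPM in the libraries labelled KO and 26.1 ± 1.24 CPM in those labelled WT. The groups did not overlap, at an adjusted p of 0.171 by edgeR. Of all tested genes, 4.28% lay higher without overlap in the libraries labelled KO. Flrt3, of the same family as Flrt1, had an adjusted p of 0.446 by edgeR, with overlap between the groups. Over all tested genes 1.43% passed, so 0 in lists this short does not show that these genes were unchanged.

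Among the genes of heparan sulphate, the sugar chain that holds FGF on its receptor, 1 of 32 rose, 1 fell and 30 did not pass. Gpc1, the proteoglycan glypican 1, rose to 118 ± 3.62 CPM in the libraries labelled KO, against 97.1 ± 5.42 CPM in those labelled WT (SD, n = 4 each), a log2 fold change of 0.28 (SE 0.05, adjusted p = 0.00269 by edgeR). Ndst3, which removes acetyl groups and adds sulphate to the chain, fell to 41.2 ± 1.79 CPM in the libraries labelled KO, against 50.6 ± 3.78 CPM in those labelled WT, by 0.30 on the log2 scale (SE 0.06, adjusted p = 0.0133 by edgeR). Glce, the epimerase of the chain, read 59.9 ± 8.18 CPM in the libraries labelled KO and 48.3 ± 1.29 CPM in those labelled WT. The groups did not overlap, at an adjusted p of 0.0529 by edgeR, and 4.28% of all tested genes lay higher in this way. Glce passed with DESeq2 (0.0128) and with GC content and length trends removed (0.0186), over a range from 0.00316 to 0.184 in all alternatives. The median log2 fold change of the 32 genes was 0.06 and 21 were positive, beside a median of -0.005 and 48.0% positive over all tested genes, of which 1.14% passed as higher and 0.289% as lower in the libraries labelled KO. Gpc1 passed without any 1 library, and Ndst3 missed the threshold without KO replicate 4, WT replicate 3 or WT replicate 4 (adjusted p = 0.0667, 0.0573 and 0.0533 by edgeR).

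Among 31 adaptors and relay genes there was 1 that rose and 0 that fell, while 30 missed the threshold. Over all tested genes 1.14% passed as higher and 0.289% as lower, so 1 call in a list of this size is not read as a result about the list. The median log2 fold change was 0.002. The gene that rose was Rps6ka2, a kinase activated by MAP kinase, at 106 ± 4.73 CPM in the libraries labelled KO and 90.2 ± 2.70 CPM in those labelled WT (SD, n = 4 each), a log2 fold change of 0.23 (SE 0.05, adjusted p = 0.0117 by edgeR). It missed the threshold without KO replicate 4 or WT replicate 3 (adjusted p = 0.0541 and 0.0571 by edgeR). Frs2, the adaptor on the receptors, read 65.7 ± 2.42 CPM in the libraries labelled KO and 67.8 ± 1.77 CPM in those labelled WT, and the groups overlapped. The adaptor Grb2 read 171 ± 5.22 CPM in the libraries labelled KO and 156 ± 9.33 CPM in those labelled WT, at an adjusted p of 0.186 by edgeR. Rps6ka1, of the same kinase family as Rps6ka2, read 33.5 ± 2.69 CPM in the libraries labelled KO and 38.1 ± 3.42 CPM in those labelled WT (SD, n = 4 each), at an adjusted p of 0.267 by edgeR.

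The feedback inhibitors and transcriptional targets, the usual readout of FGF receptor activity, held no gene that passed, 0 of 22 by edgeR, limma-voom or DESeq2 after adjustment, where DESeq2 gave 1 of them no adjusted p. Over all tested genes 1.43% passed, so 0 of 22 does not show that receptor activity was unchanged. Unadjusted by edgeR, 3 of the 22 were under 0.05. These were Dusp7, a MAP kinase phosphatase, at 64.7 ± 4.02 CPM in the libraries labelled KO and 58.5 ± 4.02 CPM in those labelled WT, Spred3, an inhibitor of RAF activation, at 48.0 ± 3.36 and 53.0 ± 3.36 CPM, and Rnd1, a small GTPase, at 26.4 ± 1.12 and 23.9 ± 0.96 CPM (SD, n = 4 each). The Ets factors Etv4 and Etv5, induced by FGF in many tissues, read 10.5 ± 1.26 and 96.3 ± 8.11 CPM in the libraries labelled KO and 10.8 ± 0.47 and 100.3 ± 10.7 CPM in those labelled WT. The inhibitors Spry2 and Dusp6 read 39.6 ± 2.67 and 45.3 ± 7.78 CPM in the libraries labelled KO and 40.2 ± 1.93 and 48.0 ± 8.87 CPM in those labelled WT, again with overlap. The list's median log2 fold change was -0.06, and 6 of 22 were positive, beside -0.005 and 48.0% positive over all tested genes. Several intervals were wide. The largest change, 0.44 for Dusp4, had a 95% interval from -0.04 to 0.92 (adjusted p = 0.446 by edgeR), and that of Spry4 ran from -0.66 to 0.54. In all, 3 of the 103 other genes of the pathway passed, beside 1.43% of all tested genes. Counted with Fgf3 and Fgf10, which had been picked because they passed, these are 5 genes. Of the 5, 3 passed without KO replicate 4 and 2 without WT replicate 3.

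**Figure D4:**
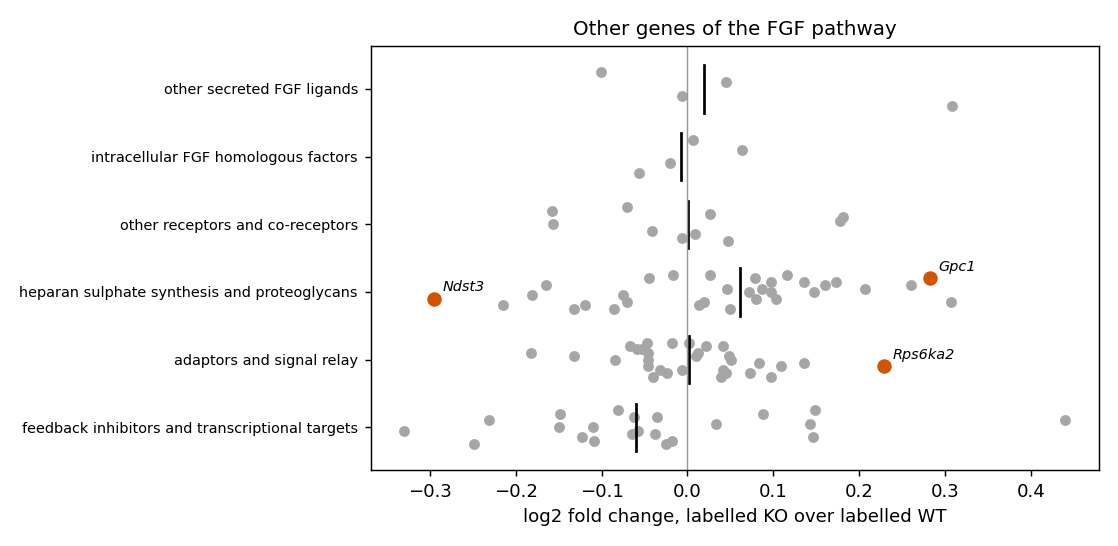
Log2 fold change, libraries labelled KO over libraries labelled WT (x axis), of 103 other genes of the FGF pathway, 1 point a gene, grouped by list with a black bar at each list's median. Orange points passed the threshold over all tested genes: Gpc1 at 0.28, Rps6ka2 at 0.23 and Ndst3 at -0.30.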

How the data were processed

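The table deposited by the authors holds expected counts per gene, that is, estimated counts of reads, in 1 column per library. Of its values, 91.5% are whole within 0.001, and the column totals differ. TopHat2 2.0.9, edgeR and GRCm38 (mm10) appear in the submitters' processing notes, which give them no role, and the program that counted reads is not given in the sources used here. Libraries were made with a stranded mRNA kit, per the labels.

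Counts were rounded, filtered with filterByExpr by group, scaled by TMM and compared with edgeR 4.0.16 in R 4.3.3 (robust quasi-likelihood test, group as the only term, Benjamini-Hochberg adjustment over 15902 genes, threshold 0.05), after the code was tested on simulated data. CPM use TMM-scaled library sizes. Genes under 0.05 unadjusted were counted within lists but not over all tested genes, so those counts have no background share beside them. Positions, lengths and GC content come from GENCODE M21, where 17286 gene identifiers were found, and upstream sequences from RefSeq (GRCm38.p6), which held 7 of the 9 genes. Within each group, replicates differed beyond sampling noise (chi-square over its degrees of freedom, 2.43 to 4.91), and none were merged.

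The members and lists were chosen with earlier results of these data known. Genes named are the members, in each pathway list those past the threshold or, where under 3 passed, the 3 of lowest p or others shown for their role and chosen after their values were seen, overlapping and neighbouring genes, and the 3 genes most like Fgf3 and Fgf10. Alternatives were other scalings and filters, DESeq2 1.42.0, limma-voom (limma 3.58.1), the replicate number as a block, GC content and length trends removed (loess, span 0.3), and each library left out.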

Additional observations from a re-analysis of the deposited data

Results flagged for a closer look

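Fgf3 read 1.35 CPM in WT replicate 3, apart from the other 3 libraries labelled WT, which read 0.841 to 0.919 CPM. The gap to the nearest was 0.846 of the range of the group, above Dixon's 95% critical value of 0.829. It was the only 1 of 18 groups of 4 looked at (9 genes in 2 groups) that stood out so, and chance flags about 1 in 20. Fgf3 was picked for this contrast, the flag rests on 27 counts in WT replicate 3 against 10 to 15 in the others, and the coefficient of variation of the libraries labelled WT, 23.1%, was below the 26.2% that counting alone gives. Without this library the log2 fold change of Fgf3 was 1.62, against 1.41 with it. WT replicate 3 remained below every library labelled KO.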

How the results depend on the processing

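The log2 fold changes of Fgf3 and Fgf10 kept their direction under all 17 alternatives, at 1.39 to 1.43 and -0.50 to -0.45 with all libraries and at 1.32 to 1.62 and -0.52 to -0.45 without 1 library. Of the other 7 genes, 0 passed under the alternatives that tested them. DESeq2 gave Fgf2, Fgf3 and Fgf18 no adjusted p, and Fgf2 was not tested under the stricter filter (above 1 CPM in 4 libraries). Their directions changed in fits without 1 library for Fgf1 (-0.0011 to 0.056), Fgf2 (-0.031 to 0.29) and Fgf18 (-0.21 to 0.073), and among other ligands for Fgf7 (-0.21 to 0.0034) and Fgf22 (-0.10 to 0.22). Fgf13, at -0.02, was at 0.0043 with GC content and length trends removed and at 0.0050 with the block as well, and ran from -0.050 to 0.0006 without 1 library. Over all genes, 228 passed, 495 with the replicate number as a block, 555 with the block and GC content and length trends removed, and 110 to 324 without 1 library (130 without KO replicate 3, 146 without KO replicate 4, 110 without WT replicate 3). Split by direction, 182 were higher in the libraries labelled KO and 46 were lower, 347 and 148 with the block, and 96 to 247 and 14 to 77 without 1 library. The heparan sulphate list held 2, and 4 with DESeq2. The 9 genes and the pathway lists held 5 that passed, among them Fgf3 and Fgf10, which had been picked because they passed. That count was 7 with the block, 9 with the block and both trends removed, and 2 to 6 without 1 library, the lowest without WT replicate 3. Deviations from the group means of same-numbered libraries correlated at 0.241, 0.09, 0.021 and 0.087 for numbers 1 to 4. The highest r of the same library labelled KO with a differently numbered library labelled WT was -0.05, 0.136, 0.058 and 0.037. Same-numbered libraries were thus the more alike for numbers 1 and 4 only. The labels state no block, so the main fit held none, and a batch shared by number was not tested. Depth limits Fgf2, Fgf3 and Fgf18 most, at 8 to 51 counts per library. The cause of these changes was not tested.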
